A study of Mus musculus with 36 samples.

Results

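The erythroid transcription factors described here are the 7 genes Gata1, Klf1, Tal1, Nfe2, Gfi1b, Lmo2, and Zfpm1. They were taken by name, as every non-control array probe annotated to one of these symbols, which gave 9 probes of the 39429 on the array and 7 of its 31093 genes. Gata1, Klf1, Tal1, Nfe2, Gfi1b, and Lmo2 have 1 probe each and Zfpm1 has 3. All 9 probes were well above background and unsaturated on all 36 arrays, and all 7 genes passed the filters on low and on invariant signal.

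RNA from the whole blood of 36 male C57BL/6J mice, 8 to 10 weeks old, was hybridized to single-colour arrays, 1 for each animal, 7 days after irradiation. Every group had 6 mice. There were sham-irradiated controls, mice given 3 Gy of x-rays, mice given a mixed field of x-rays and neutrons with 5, 15, or 25% of a total of 3 Gy from neutrons, and mice given a neutron beam alone at a labelled dose of 0.75 Gy. The last group is called 83% neutron here, after the methods, because the source also emits photons, and the array titles give 100%. The blood was collected with its red cells and platelets, and globin RNA was removed from every sample before labelling. The 83% exposure had a lower total dose than all other exposures, so percentage and dose cannot be told apart in its comparisons. In bulk blood, fewer cells of a type and less RNA per cell cannot be told apart either.

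GATA1 is a zinc finger protein that binds GATA sites and is required for red cell and platelet precursors to mature, and FOG1, the product of Zfpm1, is the cofactor that GATA1 contacts directly. KLF1 binds CACCC sites in globin, blood group, and red cell membrane genes. TAL1 and LMO2 form a DNA-bound complex with GATA1, in which LMO2 is the bridge between the proteins, while NFE2 and GFI1B act in both the red cell and the platelet lineage, GFI1B as a repressor. The transcripts of such factors in circulating blood can come from reticulocytes, from platelets, and from rare precursors, because mature red cells carry little RNA.

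The probes, with coordinates in mm9, the build of the array annotation, lay at X:7536392-7536451 on the minus strand for Gata1, 8:87428881-87428940 on the plus strand for Klf1, 4:114744219-114744278 on the plus strand for Tal1, 15:103078838-103078897 on the minus strand for Nfe2, 2:28464982-28465041 on the minus strand for Gfi1b, and 2:103821857-103821916 on the plus strand for Lmo2. Of the Zfpm1 probes, all on the plus strand, 2 overlap at 8:124861087-124861146 and 8:124861092-124861151, and the last lies further 3′ at 8:124861353-124861412. Exon and intron positions of the probes were not analysed here.

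The 250 bases before the annotated start of Gata1, Klf1, and Zfpm1, the 3 genes called higher after all 5 exposures, are shown because they carry, or lack, the letters that GATA1 and KLF1 are known to bind. The sequences are from RefSeq on GRCm38.p6, for Gata1 at chrX:7967911-7968160 on the minus strand, for Klf1 at chr8:84901732-84901981 on the plus strand, and for Zfpm1 at chr8:122281891-122282140 on the plus strand. Capitals mark GATA and CACCC on either strand, so that a match on the other strand reads TATC or GGGTG.
Gata1: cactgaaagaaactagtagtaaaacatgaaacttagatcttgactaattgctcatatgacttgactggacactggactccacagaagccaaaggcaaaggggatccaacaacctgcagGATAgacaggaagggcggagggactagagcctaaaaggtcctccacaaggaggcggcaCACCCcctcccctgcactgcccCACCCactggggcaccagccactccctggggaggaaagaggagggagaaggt
Klf1: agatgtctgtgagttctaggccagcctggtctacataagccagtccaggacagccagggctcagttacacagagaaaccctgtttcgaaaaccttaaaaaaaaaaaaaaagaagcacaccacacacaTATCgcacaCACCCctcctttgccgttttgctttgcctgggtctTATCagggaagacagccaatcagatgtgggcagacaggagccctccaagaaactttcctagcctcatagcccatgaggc
Zfpm1: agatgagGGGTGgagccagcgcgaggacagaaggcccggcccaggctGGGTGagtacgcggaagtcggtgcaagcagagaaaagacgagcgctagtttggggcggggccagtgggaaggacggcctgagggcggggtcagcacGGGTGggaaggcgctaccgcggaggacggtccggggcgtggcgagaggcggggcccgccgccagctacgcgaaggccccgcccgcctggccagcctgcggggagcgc

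The Gata1 window held 1 GATA match, 132 bases before the start, and 2 CACCC matches at 74 and 52 bases. The Klf1 window held 2 GATA matches at 123 and 79 bases and 1 CACCC match at 114 bases. The Zfpm1 window held 0 GATA matches and 3 CACCC matches at 243, 203, and 107 bases. In the Gfi1b window there was 1 match of each, and Tal1 had 4 GATA matches and 1 CACCC match before one of its starts and 0 of either before the other. These letters are common, since 53.6% of 32851 promoter windows of the same length hold GATA, 52% hold CACCC, and 25.2% hold both. The E-box CANNTG, which TAL1 binds with partners, was in 66.2% of all windows and in those of 3 of the 5 members with a sequence, and TGACTCA, the core of the NFE2 site, was in 4.46% and in 0 of the 5. The matches describe the letters of these windows and no measured binding.

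Gata1, Klf1, and Zfpm1 exceeded the controls after all 5 exposures, by 1.87-fold to 6.64-fold, and Lmo2 was called higher after x-rays (2.52-fold) and after 83% neutron (2.94-fold). Tal1, Nfe2, and Gfi1b were called after none, with differences from the controls between -0.11 and 0.59 on the log2 scale. Klf1 and Zfpm1 were lower after 83% neutron than after x-rays, by 2.21-fold and 3.55-fold, while the Gata1 difference was -0.09 on the log2 scale.

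A gene was called when limma gave p below 0.001 together with a Benjamini-Hochberg adjusted p below 0.05 over the 15077 genes tested, from the 12 arrays of a comparison. Of the 7 members, 4 were called higher after x-rays, where 12.9% of all genes were called higher. Of the 7, 3 were higher at 5% (9.01% of all genes), 3 at 15% (12.6%), 3 at 25% (10.9%), and 4 at 83% (16.1%). In these 5 comparisons 0 members were called lower, against 16.9, 14, 16.6, 13.9, and 20.4% of all genes.

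Levels are log2 intensities relative to the median of their array, and n is 6 arrays per group. The log2 array medians that were subtracted ran from 4.33 to 4.70 in the controls, 2.94 to 4.23 after x-rays, 2.77 to 4.84 at 5%, 2.84 to 5.29 at 15%, 3.60 to 5.30 at 25%, and 3.22 to 3.93 at 83%. All x-ray and 83% arrays were thus dimmer than all control arrays, and the changes below are relative to these medians. The plot of the members by array shows every value.

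**Figure D1:**
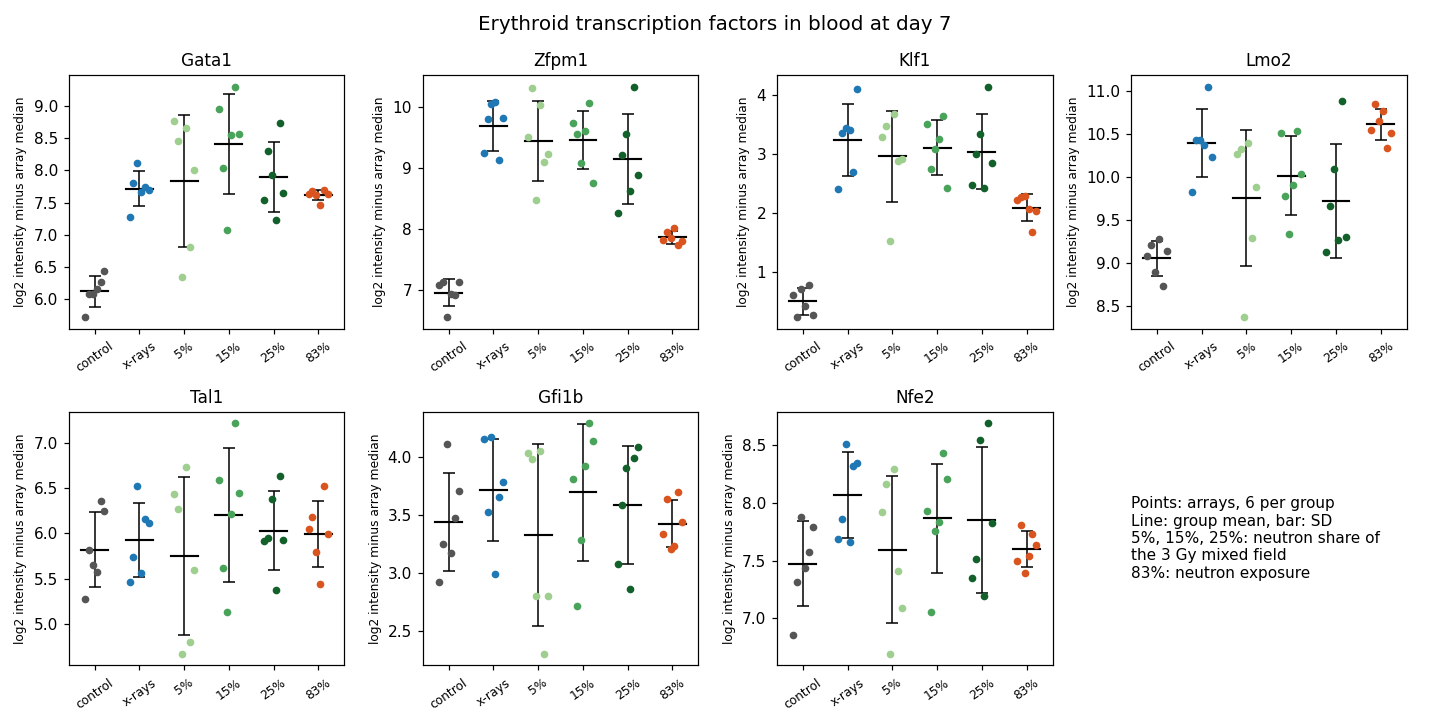
Log2 intensity relative to the array median (vertical axis) of each erythroid transcription factor on each of the 36 arrays, by group, with the mean as a line and bars of 1 SD. All exposed arrays lie above all control arrays for Klf1 and Zfpm1, and the groups overlap for Tal1, Nfe2, and Gfi1b.

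Gata1 lay between 5.72 and 6.43 on the control arrays (median 6.12) and between 7.27 and 8.12 after x-rays (7.73). The 5% arrays held 6.34 to 8.76 (median 8.23), the 15% arrays 7.08 to 9.30 (8.55), the 25% arrays 7.22 to 8.74 (7.79), and the 83% arrays 7.47 to 7.69 (7.64). All control arrays were below all exposed arrays except at 5%, where 1 array fell within the control range. The change was 1.59 ± 0.19 (log2, SE) after x-rays (adjusted p = 2.44e-05, limma), 1.72 ± 0.40 at 5% (0.00333), 2.29 ± 0.32 at 15% (8.47e-05), 1.77 ± 0.25 at 25% (0.000107), and 1.499 ± 0.133 at 83% (1.23e-06). The call at 5% was the least secure of these: without any one of 10 of the 12 arrays it was lost (log2 change 1.53 to 1.78), and it was kept without 5% mixed field replicate 3 (2.02) or replicate 5 (1.92). It was also lost under 6 of 17 other settings, among them the slide and session blocks (0.73 for both), and its sign reversed under another.

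Zfpm1, which encodes the FOG1 cofactor, lay between 6.55 and 7.13 in the controls (median 7.00) and between 9.13 and 10.08 after x-rays (9.81) on its brightest probe. The 5% arrays held 8.48 to 10.30 (9.37), the 15% arrays 8.75 to 10.06 (9.58), the 25% arrays 8.25 to 10.33 (9.05), and the 83% arrays 7.73 to 8.01 (7.83). No exposed array overlapped the controls. The change was 2.73 ± 0.21 after x-rays (adjusted p = 1.47e-06, limma), 2.48 ± 0.29 at 5% (2.70e-05), 2.50 ± 0.24 at 15% (3.87e-06), 2.18 ± 0.30 at 25% (8.49e-05), and 0.90 ± 0.13 at 83% (7.21e-05). The change at 83% is about as large as the gap in array medians, and it was 1.17, 1.09, and 0.86 with scaling on the 75th percentile, on probes above background, and by quantiles, called under each. The call was lost in the expression table the authors deposited (0.64) and with a single model over all 36 arrays, and the sign reversed under normexp with median centring (-0.74).

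The other 2 Zfpm1 probes gave unequal changes. The overlapping probe gave changes of 2.68 after x-rays and 0.89 at 83%, both called. The probe further 3′ lay between 1.07 and 1.67 in the controls (median 1.38), between 1.43 and 2.97 after x-rays (2.41), and between 0.80 and 1.72 at 83% (1.34). Its changes were 0.99 after x-rays (adjusted p = 0.00474, limma, not called), 1.06 at 25% (0.00103, called), and -0.05 at 83% (0.798, not called). On that probe 83% neutron and controls overlapped, on the other 2 they did not.

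**Figure D2:**
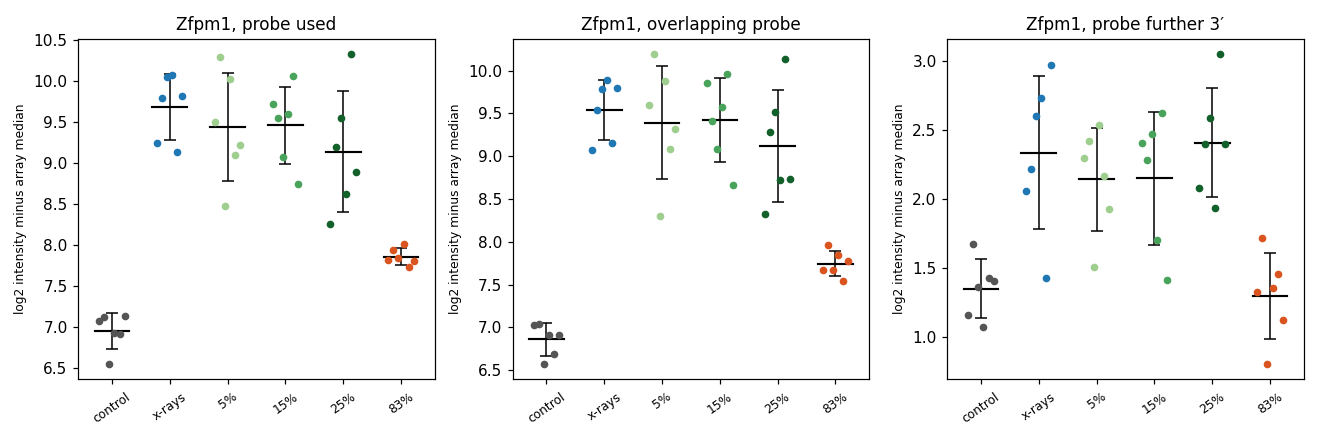
Log2 intensity relative to the array median (vertical axis) of the 3 Zfpm1 probes on each of the 36 arrays, by group, with the mean as a line and bars of 1 SD. On the 2 overlapping probes the 83% neutron arrays lie above the controls and below the x-ray arrays, and on the probe further 3′ they overlap the controls.

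Klf1 lay between 0.23 and 0.77 in the controls (median 0.51) and between 2.40 and 4.09 after x-rays (3.38). The 5% arrays held 1.52 to 3.68 (3.09), the 15% arrays 2.42 to 3.64 (3.17), the 25% arrays 2.42 to 4.14 (2.92), and the 83% arrays 1.67 to 2.28 (2.14). Every exposed array was above every control array. The change was 2.73 ± 0.27 after x-rays (adjusted p = 5.80e-06, limma), 2.46 ± 0.32 at 5% (6.71e-05), 2.61 ± 0.24 at 15% (2.68e-06), 2.54 ± 0.28 at 25% (1.27e-05), and 1.59 ± 0.15 at 83% (2.25e-06).

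Lmo2, whose product bridges TAL1 and GATA1, lay between 8.73 and 9.28 in the controls (median 9.12), between 9.83 and 11.05 after x-rays (10.40), and between 10.34 and 10.85 at 83% (10.60). The 5% arrays held 8.37 to 10.39 (10.08), the 15% arrays 9.34 to 10.54 (9.97), and the 25% arrays 9.13 to 10.88 (9.48). The controls were below all arrays of x-rays, 15%, and 83%, and overlapped those of 5 and 25%. The change was 1.33 ± 0.21 after x-rays (adjusted p = 0.000218, limma) and 1.55 ± 0.14 at 83% (1.30e-06), and it was 0.70 ± 0.33 at 5% (0.0965), 0.96 ± 0.24 at 15% (0.00393), and 0.67 ± 0.28 at 25% (0.0674), with no call. The differences at 5 and 15% passed the test without replicate 3 of the 5% group (0.98) and without replicate 3 of the 15% group (1.10). The call after x-rays was lost under 5 of 17 other settings, which were the deposited table (0.76), quantile normalization (0.83), normexp with median centring (0.44) or with quantiles (0.81), and the slide as a fixed block (1.24).

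Tal1 varied between 5.28 and 6.36 in the controls (median 5.73) and from 4.67 to 7.22 over all exposed arrays, with medians of 5.93 to 6.33. Its changes from the controls were 0.11 ± 0.25, -0.07 ± 0.37, 0.38 ± 0.33, 0.21 ± 0.26, and 0.18 ± 0.22 in the order x-rays, 5, 15, 25, and 83%. The groups overlapped in all 5 comparisons, and the 95% interval of the x-ray difference ran from -0.43 to 0.64.

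Gfi1b varied between 2.92 and 4.11 in the controls (median 3.36) and from 2.30 to 4.29 over all exposed arrays, with medians of 3.39 to 3.87 and changes between -0.11 and 0.27. Nfe2 varied between 6.86 and 7.87 in the controls (median 7.50), with x-ray arrays at 7.66 to 8.51 (8.09) and the other exposed arrays at 6.69 to 8.69. After x-rays it changed by 0.59 ± 0.23 (adjusted p = 0.0412, limma), not called because its limma p, 0.0234, was above the threshold, and its changes in the other comparisons with controls were 0.12 to 0.39. The groups of both genes overlapped in every one of these 5 comparisons.

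**Figure D3:**
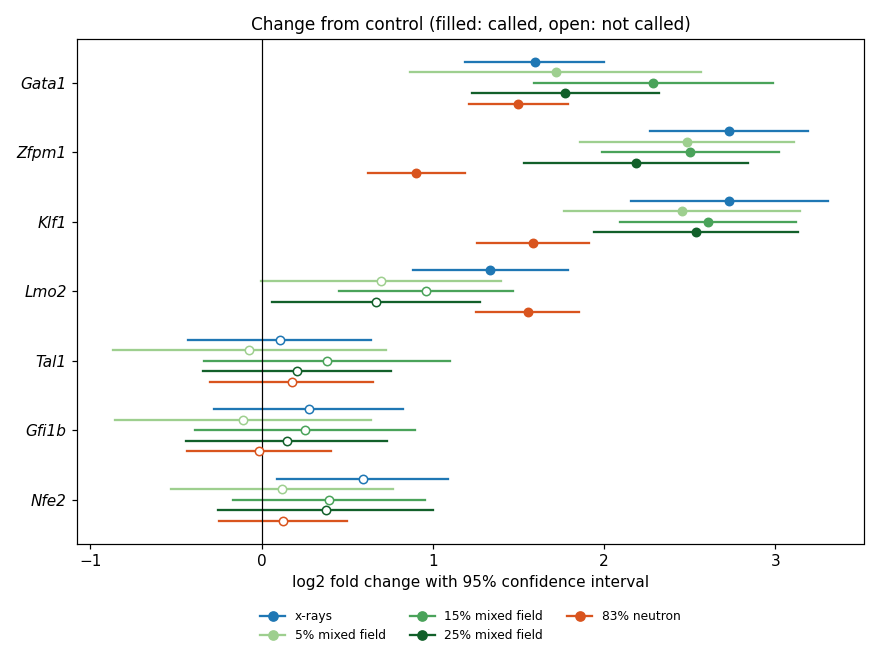
Log2 fold change from the controls (horizontal axis) of each erythroid transcription factor after the 5 exposures, with 95% confidence intervals, filled where the gene was called. Gata1, Zfpm1, and Klf1 are called after all 5 exposures, Lmo2 after x-rays and 83% neutron, and Tal1, Gfi1b, and Nfe2 after none.

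The median change over the 7 members was 1.33, 0.70, 0.96, 0.67, and 0.90 (x-rays, 5, 15, 25, and 83%), beside medians over all genes of -0.114, -0.078, -0.019, -0.118, and -0.118. Members whose 6 exposed arrays were all above the 6 controls numbered 4, 2, 4, 3, and 4 of 7, where 14.5, 7.73, 10.9, 12.1, and 15% of all genes were so separated. With another background correction (normexp) before the same centring on the array median, 0 members were called after x-rays, 5, 25, and 83% and 2 at 15%, the median over all genes moved to between -1.21 and -0.18, and Gata1 (-0.20 at 5%, -0.17 at 83%), Lmo2 (-0.19 at 83%), and Zfpm1 (-0.74 at 83%) changed sign. With quantile normalization after that correction, a setting chosen after the data had been seen, 3, 2, 3, 3, and 4 members were called.

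The arrays were scanned in 4 sessions, which largely followed the exposures. Controls and x-rays could be compared within the session that held 5 arrays of each, and the changes there were 1.59 for Gata1, 2.60 for Klf1, 2.62 for Zfpm1, and 1.33 for Lmo2. On the slide scanned apart from the rest, with 1 array per group, they were 1.62, 3.39, 3.27, and 1.33. For the 5 and 15% exposures that slide gives the sole within-session values, 0.73 and 1.00 for Gata1, 2.17 and 2.39 for Klf1, 2.55 and 2.53 for Zfpm1, and 0.40 and 0.44 for Lmo2. The 25 and 83% arrays shared no session with controls or x-rays, so that session and exposure cannot be told apart there.

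Against x-rays, no member was called after the mixed fields, while 83% neutron gave lower Klf1 and Zfpm1. Of the 7 members, 0 were called at 5% (0% of all genes in either direction), 0 at 15% (4.13%), and 0 at 25% (2.58%), and 0 of the 7 had an unadjusted limma p under 0.05 in any of the 3, against 3503, 4244, and 4418 of the 15077 genes. The largest of these differences was 0.69 for Gata1 at 15%, with a 95% interval from -0.04 to 1.43. That of Lmo2 was -0.67 at 25%, with an interval from -1.36 to 0.02, and -0.64 at 5%, from -1.41 to 0.14. That of Zfpm1 at 25% was -0.55, with an interval from -1.28 to 0.19. On the slide scanned apart, with 1 array per group and so no test, all 7 members were lower than after x-rays, with differences of -0.72 (Zfpm1) to -1.48 (Gfi1b) at 5% and of -0.50 (Gfi1b) to -1.00 (Klf1) at 15%, where Gata1 was at -0.62. The log2 array medians subtracted on that slide were 3.99 for x-rays, 4.84 at 5%, and 5.29 at 15%. These gaps in medians are similar in size to the differences, and their part was not tested. All other mixed-field arrays were scanned in other sessions than the x-ray arrays, and there exposure and session cannot be told apart.

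At 83%, 2 of the 7 members were called, both lower, where 6.35% of all genes were called lower than after x-rays and 12.9% in either direction. Zfpm1 was 1.83 ± 0.20 lower on the log2 scale (3.55-fold, adjusted p = 7.57e-05, limma) and Klf1 was 1.15 ± 0.27 lower (2.21-fold, adjusted p = 0.00668, limma). For both genes the highest 83% array was below the lowest x-ray array, 8.01 against 9.13 for Zfpm1 and 2.28 against 2.40 for Klf1, a separation found downwards in 6.84% of all genes. For Zfpm1 these are the values of its brightest probe. The overlapping probe gave -1.79 (3.47-fold, called), and the probe further 3′ gave -1.04 (2.06-fold, adjusted p = 0.0106, limma), which was not called, with groups that overlapped. The Klf1 call was lost without any one of 10 of the 12 arrays (-1.18 to -0.97) and kept without x-rays replicate 1 (-1.31) or replicate 5 (-1.25). Gata1 differed by -0.09 (95% interval -0.47 to 0.28) and Lmo2 by 0.22 (-0.23 to 0.67), so these 2 genes, both higher than the controls after either exposure, showed no difference beyond the spread, and Nfe2 differed by -0.46 (adjusted p = 0.0994, limma). All 83% arrays were scanned in another session than the x-ray arrays, and exposure, dose, and session cannot be told apart. Markers of other cell types moved in the same comparison, B-cell markers higher in 5 of 8 (median 2.72), T-cell markers higher in 3 of 8 (0.90), and neutrophil markers lower in 2 of 8 (-0.40). Of all genes, 6.52% were called higher and 6.35% lower there. The part of these cells in the differences of Klf1 and Zfpm1 was not tested.

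The 25 and 83% arrays share a scan session, which allowed a comparison within it, although total dose differs. Of the 7 members 1 was called, Zfpm1, which was 1.28 ± 0.30 lower at 83% (2.43-fold, adjusted p = 0.00678, limma), where 7.33% of all genes were called lower and 11.3% in either direction. Klf1 was 0.95 ± 0.28 lower (adjusted p = 0.0233, limma), and Lmo2 was 0.89 ± 0.28 higher (adjusted p = 0.0325, limma), both short of a call. The groups did not overlap for Zfpm1 and Klf1, as for 9.22% of all genes in that direction, and overlapped for Lmo2. On the slide that held 2 arrays of each group, the differences were -1.72 for Zfpm1, -1.25 for Klf1, and 0.60 for Lmo2. The Zfpm1 call was kept without 25% replicate 1 (-1.46), replicate 4 (-1.39), or replicate 5 (-1.04) and lost without any other one of the 12 arrays (-1.33 to -1.20), and Lmo2 passed the test without 25% replicate 5 (1.12). The Zfpm1 call was also lost under 7 of 15 other settings. The probe further 3′ gave -1.11 for Zfpm1 and was called. In this comparison B-cell markers were higher in 7 of 8 (median 2.73) and platelet markers lower in 4 of 12 (-0.68), where 4.01% of all genes were higher and 7.33% lower. The part of these cells was not tested.

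**Figure D4:**
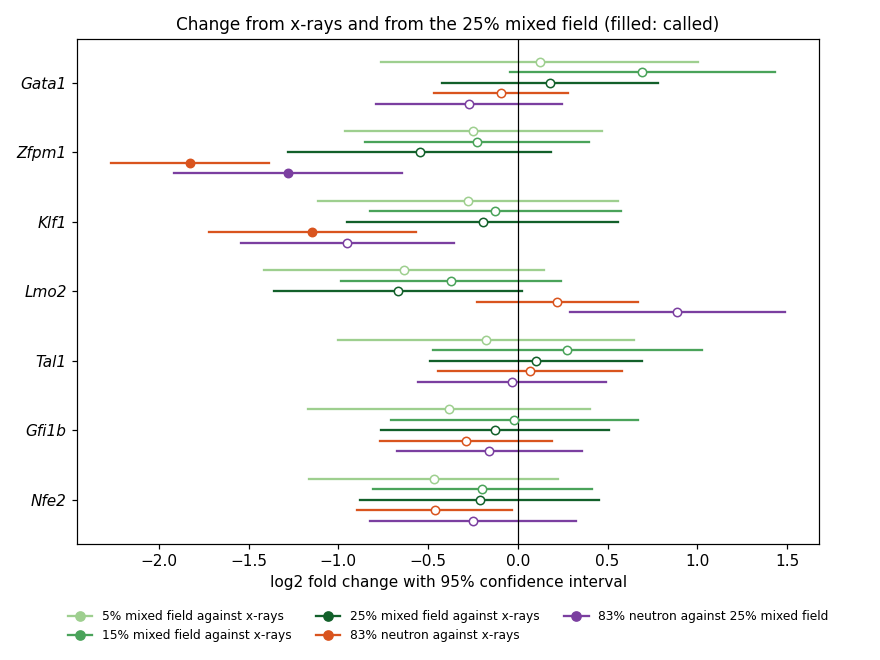
Log2 fold change (horizontal axis) of each erythroid transcription factor in the neutron-containing exposures against x-rays and in 83% neutron against the 25% mixed field, with 95% confidence intervals, filled where the gene was called. Zfpm1 and Klf1 at 83% against x-rays and Zfpm1 at 83% against 25% are the filled points, all below 0.

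The levels of the members rose and fell together between mice of a group to different degrees. After subtracting group means, Pearson's r over the 36 arrays was 0.90 for Gata1 with Tal1, 0.84 for Gata1 with Lmo2, 0.82 for Klf1 with Zfpm1, and 0.80 for Nfe2 with Gfi1b, and it was lowest, 0.37 and 0.39, for Gfi1b with Zfpm1 and with Klf1. Without subtracting the means, Klf1 and Zfpm1 had the highest r of the 21 pairs (0.94). The points share array scaling, so these values describe the arrays and carry no test. Among the genes outside the list with the closest patterns, without subtracting the means, Gata1 followed Cd82 (0.97), Klf1 followed Sphk1 (0.97) and the red cell membrane gene Ermap (0.97), Zfpm1 followed Ccnb2 (0.98) and Pnp2 (0.98), Lmo2 followed Zbtb7b (0.97), Tal1 followed Zfand5 (0.93), Nfe2 followed Prl2c1 (0.86), and Gfi1b followed Sez6l2 (0.83) and Gp9 (0.81), a platelet glycoprotein. These values include the step from controls to exposed arrays. With group means subtracted, the closest genes with a symbol were Oaz2 for Gata1 (0.97), Sphk1 for Klf1 (0.89), and Nxpe2 for Zfpm1 (0.94). They were Usp15 for Lmo2 (0.96), Prkar2b for Tal1 (0.95), Prl2c1 for Nfe2 (0.92), and Arhgdib for Gfi1b (0.89).

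Genes known as targets of GATA1 and KLF1 rose with the called factors. Of 34 listed targets 33 were tested, and against controls 30, 26, 31, 22, and 31 were higher (x-rays, 5, 15, 25, and 83%), with 0 lower. The shares of all genes called higher were 12.9, 9.01, 12.6, 10.9, and 16.1%. Median changes of the targets were 2.63, 2.18, 2.47, 2.06, and 1.70. After x-rays the largest were Ahsp, the alpha-globin chaperone, at 3.99, Mgst3 at 3.49, Rhd at 3.40, and Rhag at 3.32, the last 2 encoding proteins of the Rh blood group complex. At 83% the largest included Car2, a carbonic anhydrase, at 2.84, Ahsp at 2.59, and Rhag at 2.31.

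A part of the targets was also lower at 83% than after x-rays, as Klf1 and Zfpm1 were, while Gata1 differed by -0.09. There 16 of the 33 were called lower and 1 higher, where 6.35 and 6.52% of all genes were. The median was -0.94 beside 0.09 over all genes. The log2 of the summed intensity of the 34 listed targets had a median of 17.86 at 83% (17.62 to 17.98) and 17.61 after x-rays (16.92 to 18.10). The brightest genes weigh most in this sum, so it does not show the change of a typical target. At 5, 15, and 25% against x-rays 0, 1, and 0 were called, the 1 higher, where 0, 4.13, and 2.58% of all genes were called in either direction. Those that moved most at 83% included Mgst3 (-2.50) and Tmcc2 (-1.52), and Hemgn, which encodes hemogen, was higher (1.42). Against 25%, 5 of the 33 were lower and 1 higher at 83%, where 7.33 and 4.01% of all genes were. Ahsp (-2.27), Mgst3 (-1.88), Add2 (-1.74), and Urod (-1.36) moved most.

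**Figure D5:**
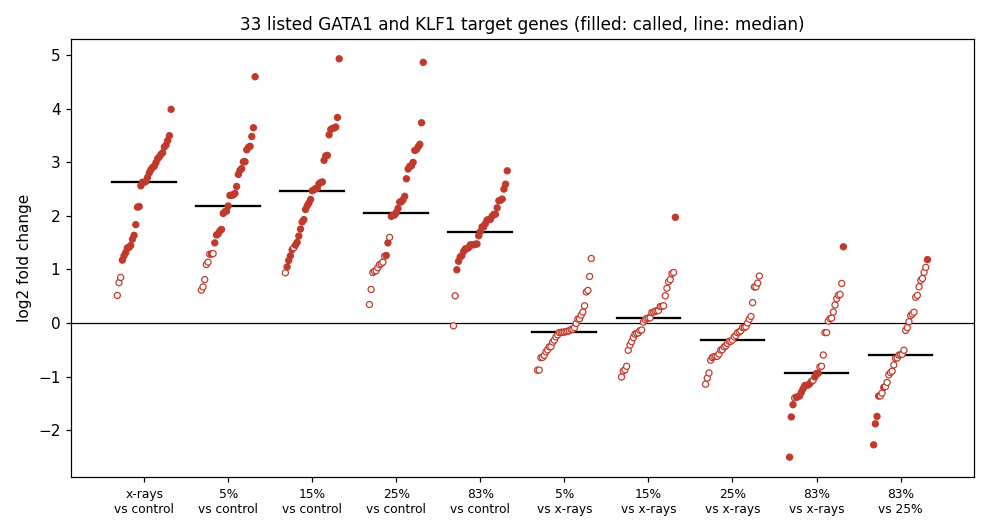
Log2 fold change (vertical axis) of the 33 GATA1 and KLF1 target genes tested, in each of the 10 comparisons, filled where called, with the median as a line. The medians against controls run from 1.70 to 2.63, and the 83% neutron comparisons with x-rays and 25% have medians of -0.94 and -0.59.

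Transcripts of partner and co-regulator proteins were called in both directions, against controls more often lower than higher. Of 26 listed partner and co-regulator genes 20 were tested, and against controls 4, 3, 4, 2, and 3 were higher and 6, 6, 8, 7, and 9 lower (x-rays, 5, 15, 25, and 83%). Over all genes, 12.9, 9.01, 12.6, 10.9, and 16.1% were called higher and 16.9, 14, 16.6, 13.9, and 20.4% lower. The counts called higher are near those shares, and nothing particular to the list is read from them. The counts called lower are above their shares after every exposure. The median changes of the list were -0.68, -0.74, -0.92, -0.81, and -0.56, and the cause was not tested. E2f2, a cell cycle regulator of late erythroblasts, was higher by 2.17 to 2.75 after all 5 exposures and Sox6, which represses embryonic globin genes, by 1.78 to 2.36. Bcl11a, the repressor of fetal globin that B cells also express, was lower by 3.09 to 3.62 after x-rays and the mixed fields. Ldb1, which holds the TAL1 and LMO2 complex together, was lower after every exposure (-1.20 to -1.85). Against x-rays, 4 were higher and 1 lower at 83%, where 6.52 and 6.35% of all genes were. Bcl11a (2.54) and Myb (1.74) were among those higher, and Runx1 (-1.16) was lower.

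Genes of the erythropoietin and Kit receptor pathways were also followed. Of 12 listed, 10 were tested, and 2, 2, 4, 3, and 1 were higher than in controls (x-rays, 5, 15, 25, and 83%), where 12.9, 9.01, 12.6, 10.9, and 16.1% of all genes were higher. In the same order 2, 0, 1, 0, and 0 were lower, where 16.9, 14, 16.6, 13.9, and 20.4% of all genes were. The survival gene Bcl2l1 was higher by 1.88 to 2.85 after all 5 exposures. Cish, a STAT5-induced inhibitor of cytokine signalling, was higher by 1.31, 1.90, 1.47, and 2.01 after x-rays and the mixed fields, while its change at 83% was -0.22 and was not called. At 83% Cish was 1.53 lower than after x-rays and 2.23 lower than at 25%.

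Of 7 factors that oppose the erythroid programme, 0 were called higher than the controls and 2, 2, 1, 2, and 1 were lower, where 16.9, 14, 16.6, 13.9, and 20.4% of all genes were lower, and nothing particular to the list is read from these counts. Fli1, a factor of platelet precursors and lymphocytes, was lower after all 5 exposures (-1.09 to -1.88) and Irf8 after x-rays (-1.42). B-cell markers, whose summed level had a median of 11.75 in the controls and 6.72 to 10.28 in the exposed groups, fell in 8 of 8 genes after x-rays and the mixed fields and in 7 of 8 at 83%, and their part in these values was not tested.

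Reticulocyte markers rose as well, and platelet markers were called higher in part, mainly at 15 and 25%. Of 10 reticulocyte and erythroblast markers, some of which are also in the target list, 7, 8, 9, 7, and 9 were higher than in controls (x-rays, 5, 15, 25, and 83%), where 12.9, 9.01, 12.6, 10.9, and 16.1% of all genes were higher. The log2 of their summed intensity, in which the brightest genes weigh most, had a median of 14.57 in the controls (14.41 to 14.82). In the exposed groups its medians were 15.45 to 16.03 (14.62 to 16.79). At 83% against x-rays 5 of the 10 were lower and 1 higher, where 6.35 and 6.52% of all genes were, with summed medians of 16.02 and 16.03. Of 12 platelet and megakaryocyte markers, 0, 0, 4, 6, and 1 were higher than in the controls, above the shares of all genes at 15 and 25% alone. Their summed median was 13.46 in the controls (12.80 to 13.68), with medians of 13.88 to 14.93 in the exposed groups (12.98 to 15.54). All 22 of these markers were well above background on all 36 arrays, the controls included. Blood progenitor markers rose in 0, 0, 1, 1, and 1 of 4 tested, and the progenitor genes Mecom and Mycn were well above background on 1 and 0 arrays. The part of these cells in the changes of the 7 factors was not tested.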

How the data were processed

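The authors deposited scanner intensities for each array on a linear scale, corrected for background and spatial trend by Agilent Feature Extraction 12.0.2 and not normalized between arrays. They also deposited an expression table of log2 values, which holds 6 of the 7 members, without Nfe2, and 11359 empty cells, and which was used as an alternative. After log2 transformation and averaging over the spots of a probe, leaving out non-uniform ones, the median of each array was subtracted. Kept were probes that passed Feature Extraction's tests of uniformity and of signal above background on over 75% of arrays and that departed at least 1.5-fold from their own median on 20% of arrays or more. Each gene was taken from its brightest probe, which left 15077 genes, 11301 of them found in the reference by symbol. Probes well above background numbered 15569 to 21294 per array, and the number of arrays limits the precision.

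Comparisons used limma 3.58.1 in R 4.3.3 (with the data.table package, version 1.17.8) on the 12 arrays of a comparison, in place of the study's random variance test, with calls at p below 0.001 and Benjamini-Hochberg adjusted p below 0.05. Each array is 1 mouse per the methods. Plots came from matplotlib 3.10.9 under Python 3.11.15 with numpy 2.4.6. In a test on simulated data for x-rays against controls over 15077 genes, 12 of 50 genes given a log2 change of 1 were recovered, 29 of 50 at 1.5, 42 of 50 at 2, and 34 of 50 at -1.5, with 9 false calls. The simulated noise was independent between genes and held no effect of array brightness or scan session. The count of false calls therefore does not cover such effects in the real arrays.

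The members and all gene lists were chosen with earlier results of these data known. All members were named, and of other lists at most 4 genes per comparison, those called with the largest change; a gene so named is given in other comparisons too. Alternatives covered scaling (75th percentile, probes above background, quantile), normexp background correction with offset 50, a floor of 10, filters, the mean over probes, the deposited table, a single model, blocks for replicate number, slide, and scan session, array weights, the adjusted p alone, and leaving out each array. Marker lists not given in the report were called higher and lower as follows, in the order x-rays, 5, 15, 25, and 83% against controls. Beside them, 12.9, 9.01, 12.6, 10.9, and 16.1% of all genes were called higher and 16.9, 14, 16.6, 13.9, and 20.4% lower. Neutrophil markers (8 tested) were higher in 4, 3, 4, 4, and 4 and lower in 0 of each, monocyte markers (5 tested) higher in 0, 0, 0, 0, and 2, T-cell markers (8 tested) lower in 3, 3, 3, 1, and 1, NK-cell markers (6 tested) in neither direction, and basophil and mast cell markers (6 tested) higher in 1, 2, 1, 1, and 1 and lower in 1 after x-rays. Some genes that the rule for named genes selected are not reported here by name.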

Additional observations from a re-analysis of the deposited data

Results flagged for a closer look

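Of the 42 groups of 6 arrays checked, 7 members in 6 groups, 3 held an array set apart from the other 5 by Dixon's test, where chance gives about 1 in 20. Gata1 was 7.47 in 83% neutron replicate 4, against 7.62 to 7.69 on the other 5 arrays. Klf1 was 1.52 in 5% mixed field replicate 3, against 2.88 to 3.68. Zfpm1 was 6.55 in control replicate 3, against 6.92 to 7.13.

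Of the differences between exposures, Klf1 was lower after 83% neutron than after x-rays (-1.15, adjusted p = 0.00668, limma), Zfpm1 was lower after 83% neutron than after x-rays (-1.83, adjusted p = 7.57e-05, limma), and Zfpm1 was lower after 83% neutron than after the 25% mixed field (-1.28, adjusted p = 0.00678, limma).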

How the results depend on the processing

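Klf1 was called against controls in all 5 comparisons under all alternatives except normexp with median centring and, at 5 and 15%, the slide and session blocks, and only 1 array per group at 5 and 15% shared a slide and session with controls. The cause of these changes was not tested. Replicate numbers gave no pairing, since residuals of same-numbered arrays had a mean correlation of 0.04 over 90 pairs, against -0.01 over 450 others. With the replicate block, the members called were 4, 2, 3, 3, and 4 after x-rays, 5, 15, 25, and 83% against controls, 1 for 83% against x-rays, and 0 for 83% against 25%. Lmo2 at 15% was called under 8 alternatives.

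Scaling on the 75th percentile raised the median over all genes, for x-rays to 0.44 (under the median scaling -0.11), for 5% to 0.19 (-0.08), for 15% to 0.30 (-0.02), for 25% to 0.11 (-0.12), and for 83% to 0.29 (-0.12). For x-rays it gave 2744 genes higher and 1650 lower (under the median scaling 1938 and 2554), for 5% 1619 and 1725 (1359 and 2117), for 15% 2224 and 1926 (1898 and 2500), for 25% 1884 and 1793 (1640 and 2097), and for 83% 3494 and 2126 (2429 and 3080).

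With normexp correction and median centring, the sign reversed for x-rays against controls (Gfi1b -0.24, Nfe2 -0.26, Tal1 -0.66), for 5% against controls (Gata1 -0.20, Lmo2 -1.37, Nfe2 -1.74), for 25% against controls (Gfi1b -0.23, Lmo2 -0.0097, Nfe2 -0.31, Tal1 -0.41), for 83% against controls (Gata1 -0.17, Lmo2 -0.19, Nfe2 -1.503, Tal1 -1.22, Zfpm1 -0.74), for 5% against x-rays (Gata1 -0.88), for 15% against x-rays (Gfi1b 0.30, Klf1 0.25, Lmo2 0.33, Nfe2 0.42, Zfpm1 0.47), for 25% against x-rays (Gfi1b 0.0095, Klf1 0.057), for 83% against x-rays (Lmo2 -0.63, Tal1 -0.57), and for 83% against 25% (Lmo2 -0.18). Calls numbered 0 for x-rays against controls, 0 for 5% against controls, 0 for 25% against controls, 0 for 83% against controls, 0 for 83% against x-rays, and 0 for 83% against 25%.

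With normexp correction and quantile normalization, added after the data had been seen, the sign reversed for 5% against controls (Nfe2 -0.31), for 15% against controls (Nfe2 -0.17), for 25% against controls (Nfe2 -0.084), for 83% against controls (Nfe2 -0.0066), for 5% against x-rays (Gata1 -0.076), for 25% against x-rays (Gata1 -0.052), and for 83% against 25% (Gata1 0.045, Nfe2 0.078). Calls numbered 1 for 83% against x-rays. With quantile normalization, the sign reversed for 5% against controls (Gfi1b 0.044), for 83% against controls (Gfi1b 0.26), for 5% against x-rays (Gata1 -0.12), for 15% against x-rays (Tal1 -0.033), for 25% against x-rays (Gata1 -0.034, Tal1 -0.15), for 83% against x-rays (Gata1 0.020), and for 83% against 25% (Gata1 0.054, Tal1 0.22). With scaling on the 75th percentile, the sign reversed for 5% against controls (Gfi1b 0.046, Tal1 0.084), for 83% against controls (Gfi1b 0.25), for 5% against x-rays (Gata1 -0.067), for 25% against x-rays (Gata1 -0.031, Tal1 -0.11), for 83% against x-rays (Tal1 -0.0088), and for 83% against 25% (Tal1 0.10). Calls numbered 0 for 83% against 25%. With scaling on probes well above background on all arrays, the sign reversed for 5% against controls (Gfi1b 0.044, Tal1 0.082), for 83% against controls (Gfi1b 0.18), for 5% against x-rays (Gata1 -0.020), for 25% against x-rays (Gata1 -0.0057, Tal1 -0.084), for 83% against x-rays (Tal1 -0.037), and for 83% against 25% (Tal1 0.047). Calls numbered 0 for 83% against 25%. In the deposited table, the sign reversed for 5% against x-rays (Gata1 -0.14), for 15% against x-rays (Tal1 -0.095), for 25% against x-rays (Tal1 -0.11), for 83% against x-rays (Tal1 -0.065), and for 83% against 25% (Tal1 0.045).

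With array weights, the sign reversed for 5% against controls (Gfi1b 0.35, Tal1 0.39), for 25% against controls (Tal1 -0.046), for 5% against x-rays (Gfi1b 0.079, Tal1 0.32), for 15% against x-rays (Gfi1b 0.17), for 25% against x-rays (Gata1 -0.016, Tal1 -0.11), and for 83% against 25% (Tal1 0.11). Calls numbered 2 for 83% against 25%. With slide as a fixed block, the sign reversed for x-rays against controls (Tal1 -0.31), for 5% against controls (Nfe2 -0.46), for 15% against controls (Gfi1b -0.83, Nfe2 -0.12, Tal1 -0.51), for 5% against x-rays (Gata1 -0.89), and for 15% against x-rays (Gata1 -0.62, Tal1 -0.98). Calls numbered 0 for 5% against controls, 0 for 15% against controls, and 0 for 83% against 25%. With scan session as a block, the sign reversed for 5% against controls (Nfe2 -0.46), for 15% against controls (Gfi1b -0.83, Nfe2 -0.12, Tal1 -0.51), for 5% against x-rays (Gata1 -0.89), and for 15% against x-rays (Gata1 -0.62, Tal1 -0.98). Calls numbered 0 for 5% against controls and 0 for 15% against controls. Without the slide scanned apart, a setting added after the data had been seen, the sign reversed for 5% against controls (Gfi1b 0.23, Tal1 0.084), for 83% against controls (Gfi1b 0.12), for 5% against x-rays (Tal1 0.049), and for 15% against x-rays (Gfi1b 0.077, Klf1 0.050). Calls numbered 1 for 83% against x-rays. With the adjusted p alone, calls numbered 3 for 83% against 25%. Leaving out 1 array at a time reversed the sign of small changes for x-rays against controls (Tal1 -0.013 to 0.21), for 5% against controls (Tal1 -0.27 to 0.14, Nfe2 -0.018 to 0.30, Gfi1b -0.25 to 0.096), for 83% against controls (Gfi1b -0.12 to 0.12), for 5% against x-rays (Gata1 -0.062 to 0.42, Klf1 -0.44 to 0.011, Tal1 -0.37 to 0.038), for 15% against x-rays (Klf1 -0.29 to 0.047, Gfi1b -0.16 to 0.18), for 25% against x-rays (Tal1 -0.020 to 0.23, Gfi1b -0.27 to 0.017), for 83% against x-rays (Tal1 -0.036 to 0.19), and for 83% against 25% (Tal1 -0.16 to 0.089). The members called then ranged from 1 to 2 for 83% against x-rays and from 0 to 2 for 83% against 25%.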
